A study of Homo sapiens with 3 samples.

Results

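Matrix metalloproteinases and their tissue inhibitors, the TIMPs, were followed across 3 established human prostate cancer cell lines. The genes were taken by symbol, 7 metalloproteinase genes (MMP1, MMP2, MMP7, MMP9, MMP13, MMP14 and MMP15) and 3 inhibitor genes (TIMP1, TIMP2 and TIMP3), and all 10 were found among the 58735 genes of the tables. PC3, a line from a bone metastasis, and DU145, a line from a brain metastasis, stood for castration-resistant cancer in the series design. LNCAP, an androgen-responsive line from a lymph node metastasis, stood for androgen-dependent cancer. Each line had 1 library of total RNA, and the labels name no agent for any of them. All 3 lines were grown at 37 °C in medium with 10% fetal bovine serum. The labels name 3 media without tying them to lines, so line and medium cannot be told apart.

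Matrix metalloproteinases are zinc-dependent proteases that cut collagens, other matrix proteins and cell surface proteins. They are made as inactive proforms whose propeptide must be removed, and they are secreted or held at the cell membrane. TIMPs are small proteins that occupy the active site of the mature enzymes. The collagenases MMP1 and MMP13 cut fibrillar collagen, the gelatinases MMP2 and MMP9 cut denatured and basement membrane collagen, matrilysin (MMP7) is a small enzyme made by epithelia, and MMP14 and MMP15 are anchored in the membrane. MMP14 at the cell surface activates proMMP2 in a complex that contains TIMP2.

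The 7 enzymes share the zinc-binding site, and its coding sequence is shown to let the family be read side by side. The stretches of 33 bases below are from GENCODE 29 transcripts on GRCh38, read on the coding strand. Capitals mark the 4 codons of the 3 zinc-binding histidines and the catalytic glutamate.
MMP1: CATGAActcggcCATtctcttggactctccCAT
MMP13: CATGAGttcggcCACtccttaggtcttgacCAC
MMP2: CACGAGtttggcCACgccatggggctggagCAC
MMP9: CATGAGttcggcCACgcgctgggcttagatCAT
MMP7: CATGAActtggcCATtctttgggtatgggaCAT
MMP14: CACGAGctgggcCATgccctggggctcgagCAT
MMP15: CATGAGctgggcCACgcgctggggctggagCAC
Between pairs of these stretches 18 to 28 of the 33 bases were identical. The lowest pair was MMP1 with MMP2, and the highest were MMP15 with MMP2 and with MMP14. Over whole transcripts, 6 of the 10 genes shared no run of 50 bases with a transcript of any other gene. The shared part was 11.1% of such runs in MMP9, 8.28% in TIMP2, 2.92% in MMP1 and 2.57% in MMP2. In MMP9, MMP1 and MMP2 each shared run was also in 1 gene that overlaps them, and in TIMP2 318 of the 470 shared runs were in an overlapping antisense gene.

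The libraries held 15319045 counts in PC3, 15878546 in DU145 and 15393103 in LNCAP. Levels are normalised CPM, counts scaled to library size, and a count of 0 allows up to 3 counts, which is 0.191 to 0.196 normalised CPM. Line labels were checked with CTNNA1 and KLK3. CTNNA1, the alpha-catenin gene that is defective in PC3, stood at 2.16 CPM in PC3, 506.3 CPM in DU145 and 362.3 CPM in LNCAP, and KLK3 was read in LNCAP only. Of 7 luminal prostate markers, 5 in PC3, 3 in DU145 and 7 in LNCAP reached 1 CPM. Markers of other cell types were read in part. The 4 leukocyte markers summed to 0.654, 1.53 and 0.896 CPM in PC3, DU145 and LNCAP. The 6 stromal markers summed to 48.1, 10.2 and 35.7 CPM. Of these, COL1A1 stood at 31.9 CPM in PC3, 9.45 in DU145 and 33.1 in LNCAP, COL3A1 at 15.6, 0.128 and 1.98 CPM, and COL1A2, PDGFRB, DCN and LUM under 1 CPM in each library. The 3 endothelial markers summed to 20.2, 0.957 and 9.34 CPM, which was nearly all PECAM1 in PC3 (20.1 CPM, with 0.766 in DU145 and 0 in LNCAP) and VWF in LNCAP (9.21 CPM, with 0.0654 in PC3 and 0 in DU145), while CDH5 had at most 3 counts. The part of these genes' cell types in the results was not tested.

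In PC3, 5 of the 10 genes had their highest level (MMP1, MMP9, MMP13, TIMP1 and TIMP2), in DU145 1 (MMP14) and in LNCAP 2 (MMP7 and MMP15). MMP2 and TIMP3 had no counts in any library. The ratio of normalised counts between libraries is given with its exact 95% counting interval, and a gene counted as called when libraries stood 4-fold or more apart (a log2 ratio of 2, with 0.5 counts added) with 1 outside the interval, provided it reached 1 CPM in at least 1 library. With 1 library per line no difference has a replicate check, and the intervals cover counting error only. A fold against a library with no counts, written as at least, sets that library to 3 counts. Such a bound carries no counting interval and is not a 95% limit. The 95% upper limit for 0 counts is higher than 3 counts, at 0.235 CPM in DU145 and 0.241 CPM in PC3. Amplified reads that carry no molecular identifier need not be separate molecules. Because whole cultures were measured, fewer cells with a transcript and less transcript per cell cannot be told apart. Of the 10 genes, 7 passed this filter, and 5 of these 7 were under 1 CPM in some library, so they passed only through the libraries where they were high.

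**Figure D1:**
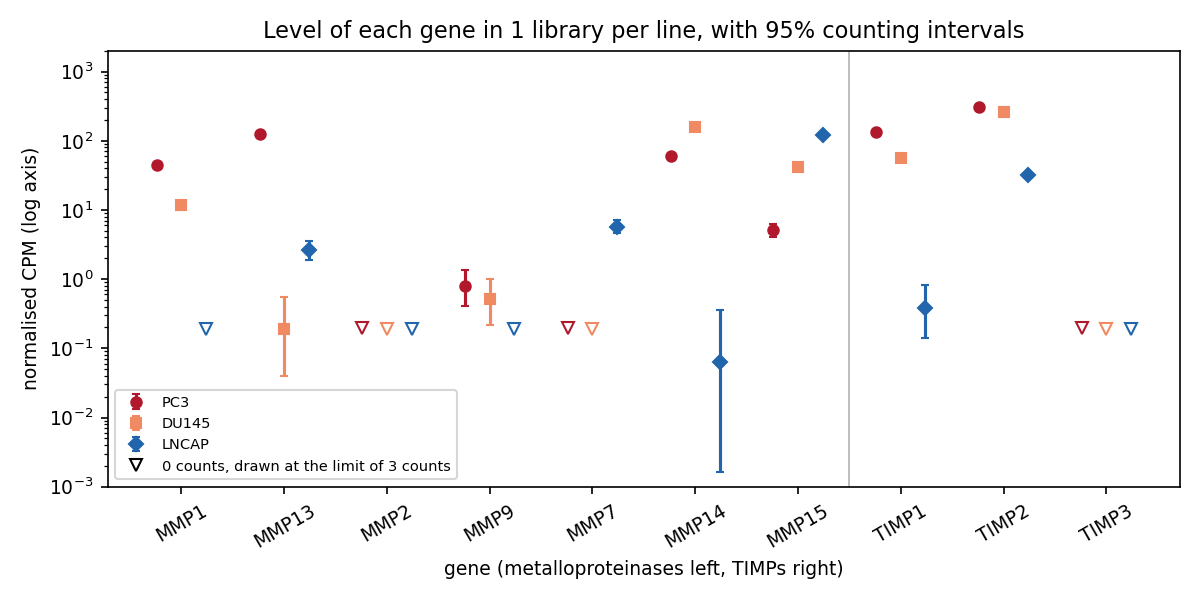
Normalised CPM (log axis) of the 10 genes in PC3, DU145 and LNCAP, 1 point per library with its 95% counting interval, and open triangles at the limit of 3 counts where a library had no counts. MMP1, MMP14, TIMP1 and TIMP2 stand above LNCAP in PC3 and DU145, MMP13 stands at 126.5 CPM in PC3 and under 3 CPM elsewhere, and MMP15 stands highest in LNCAP.

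Against LNCAP, 5 of the 7 genes that passed the filter were called higher in PC3 (MMP1, MMP13, MMP14, TIMP1 and TIMP2) and 2 lower (MMP7 and MMP15). MMP2, MMP9 and TIMP3 did not pass the filter. Among all 18025 genes tested, 13.0% were called higher and 13.3% lower in PC3. The genes followed here were chosen with earlier results of these data known, so setting them beside these shares is no test. In DU145 4 genes were called higher than in LNCAP (MMP1, MMP14, TIMP1 and TIMP2) and 2 lower (MMP7 and MMP13), where 13.7% of all genes were called higher and 12.1% lower. The comparisons share the LNCAP library, so their likeness is not independent evidence. Between PC3 and DU145 1 gene was called higher in PC3, MMP13, and 1 lower, MMP15, where 8.54% and 10.6% of all genes were called.

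Both collagenases had their highest level in PC3. MMP1 (ENSG00000196611, chromosome 11, 102789920 to 102798160, minus strand), interstitial collagenase, had 691 counts in PC3, 182 in DU145 and 0 in LNCAP. The level of 45.2 CPM in PC3 exceeded LNCAP by at least 235.6-fold, and that of 11.6 CPM in DU145 by at least 60.5-fold. Levels in PC3 and DU145 did not overlap in their counting intervals, and the PC3 level was 3.89-fold that of DU145 (3.3 to 4.61), just under the 4-fold threshold. The pseudogene WTAPP1 runs across MMP1 on the opposite strand and overlaps 150 of the 1970 exon bases of MMP1, and it had 2, 0 and 3 counts in PC3, DU145 and LNCAP.

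MMP13 (ENSG00000137745, chromosome 11, 102942995 to 102955734, minus strand), collagenase 3, had 1934 counts in PC3, 3 in DU145 and 41 in LNCAP. As levels these are 126.5, 0.191 and 2.62 CPM, so PC3 was high, LNCAP low and DU145 at the limit of counting. PC3 was 48.2-fold higher than LNCAP (35.4 to 67.4), and DU145 was 13.7-fold lower than LNCAP (4.37 to 69.2). MMP13 was the only gene of the 10 called in opposite directions in the comparisons of PC3 and DU145 with LNCAP, and its DU145 call was lost with 1 added to the deposited FPKM (log2 ratio -0.84). PC3 was 660.9-fold higher than DU145 (225.8 to 3207), from 3 DU145 counts.

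The gelatinases were at or near 0. MMP2 (ENSG00000087245, chromosome 16, 55389700 to 55506691, plus strand), gelatinase A, had 0 counts in PC3, DU145 and LNCAP, and no fold was measured. A gene model on the same strand, AC007336.3, overlaps 174 of its 4933 exon bases and also had no counts. MMP9 (ENSG00000100985, chromosome 20, 46008908 to 46016561, plus strand), gelatinase B, had 12 counts in PC3, 8 in DU145 and 0 in LNCAP. Its levels of 0.785 and 0.511 CPM in PC3 and DU145 were under the 1 CPM filter. The bound against LNCAP was at least 4.09-fold higher for PC3, while for DU145 it was 2.66-fold, and both lines were called higher without the filter. The PC3 and DU145 levels differed from each other by less than the counting error, at 1.54-fold (0.578 to 4.34). The antisense gene SLC12A5-AS1, which overlaps 430 of the 2336 exon bases of MMP9, had 23, 13 and 0 counts in PC3, DU145 and LNCAP. Whether the authors' counting used strand is not given in the sources used here, so part of the reads of these genes cannot be told apart.

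Matrilysin was read in LNCAP only. MMP7 (ENSG00000137673, chromosome 11, 102520508 to 102530753, minus strand) had 0 counts in PC3, 0 in DU145 and 90 in LNCAP, where it reached 5.76 CPM. It was at least 29.3-fold lower in PC3 and at least 30.1-fold lower in DU145. With 1 added to the deposited FPKM, a scale that understates the change of low genes, its log2 ratio was -1.78 in both comparisons and the call was lost.

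Of the membrane-anchored members, MMP14 had its highest level in DU145 and MMP15 in LNCAP. MMP14 (ENSG00000157227, chromosome 14, 22836557 to 22849027, plus strand), also called MT1-MMP, had 925 counts in PC3, 2495 in DU145 and 1 in LNCAP. At 60.5 and 159.2 CPM it was high in PC3 and DU145 and close to absent from the LNCAP library at 0.064 CPM. PC3 was 946-fold higher than LNCAP (169.4 to 37407) and DU145 2489-fold higher (446.4 to 98358), intervals that are wide because LNCAP had 1 count. Between PC3 and DU145 the level was 2.63-fold lower in PC3 (2.44 to 2.84), under the 4-fold threshold.

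MMP15 (ENSG00000102996, chromosome 16, 58025566 to 58046901, plus strand), or MT2-MMP, had 78 counts in PC3, 647 in DU145 and 1899 in LNCAP. The levels of 5.1, 41.3 and 121.5 CPM put LNCAP highest and PC3 lowest, with counting intervals that did not overlap. PC3 was 23.8-fold lower than LNCAP (19 to 30.3) and 8.09-fold lower than DU145 (6.39 to 10.4). DU145 stood at a 2.94-fold lower level than LNCAP (2.69 to 3.22), which did not reach the 4-fold threshold.

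**Figure D2:**
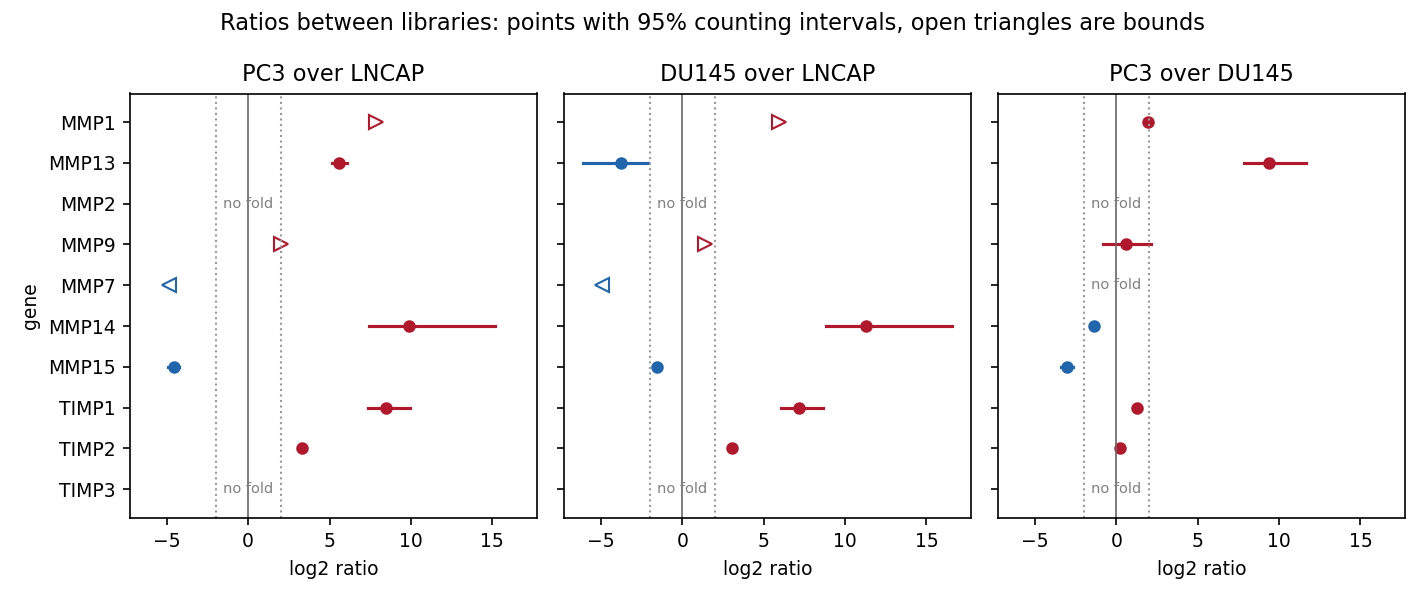
Log2 ratios of the 10 genes for PC3 over LNCAP, DU145 over LNCAP and PC3 over DU145, with 95% counting intervals as lines, open triangles for bounds where the lower library had no counts, and dotted lines at a 4-fold difference. MMP13 lies to the right in PC3 over LNCAP and to the left in DU145 over LNCAP, and MMP15 lies to the left of 0 in each panel.

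The inhibitors TIMP1 and TIMP2 were both higher in PC3 and in DU145 than in LNCAP. TIMP1 (ENSG00000102265, chromosome X, 47582313 to 47586789, plus strand), a secreted inhibitor of most soluble metalloproteinases, had 2076 counts in PC3, 871 in DU145 and 6 in LNCAP. Levels were 135.8, 55.6 and 0.384 CPM, with LNCAP far below the others. PC3 was 353.9-fold higher than LNCAP (162.3 to 965.4) and DU145 144.8-fold higher (66.3 to 395.7). PC3 stood 2.44-fold above DU145 (2.26 to 2.65), which is under 4-fold.

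TIMP2 (ENSG00000035862, chromosome 17, 78852977 to 78925387, minus strand), which also takes part in the activation of proMMP2, was the most counted of the 10 genes in PC3 and DU145. It had 4693 counts in PC3, 4124 in DU145 and 493 in LNCAP, or 307, 263.2 and 31.5 CPM. The level was 9.74-fold higher in PC3 than in LNCAP (8.87 to 10.7) and 8.35-fold higher in DU145 (7.6 to 9.18). PC3 stood 1.17-fold above DU145 (1.12 to 1.22), more than counting error and far under 4-fold. Gene models that overlap TIMP2 had at most 10 counts in any library.

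TIMP3 (ENSG00000100234, chromosome 22, 32801701 to 32863043, plus strand), an inhibitor that binds to the matrix and also acts on ADAM proteases, had 0 counts in PC3, DU145 and LNCAP. TIMP3 lies wholly inside the gene SYN3 on the opposite strand, with no exon bases in common, and SYN3 had 1, 7 and 0 counts in the same libraries. TIMP1 lies in the same way inside SYN1, which had no counts.

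Upstream sequences in RefSeq (GRCh38.p14) were found for 5 of the 10 genes, MMP7, MMP14, MMP15, TIMP1 and TIMP3. A gene read in LNCAP only, a gene close to absent there and a gene absent from every library are shown, each over the 120 bases before the first start annotated in RefSeq or GENCODE 29. Capitals mark 5 motifs that were searched for on both strands. The AP-1 site was read as TGAGTCA. For the TATA box the letters were TATAAA. The GC box was taken as GGGCGG. For the CCAAT box the 5 letters of its name were used. The ETS-type motif was AGGAAG.
MMP7 (chr11:102530754-102530873, minus strand): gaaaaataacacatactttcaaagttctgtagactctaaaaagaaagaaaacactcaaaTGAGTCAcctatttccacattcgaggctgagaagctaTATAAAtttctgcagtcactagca
MMP14 (chr14:22836437-22836556, plus strand): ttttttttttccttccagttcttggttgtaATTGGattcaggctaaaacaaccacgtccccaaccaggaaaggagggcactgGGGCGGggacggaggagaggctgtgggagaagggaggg
TIMP3 (chr22:32801581-32801700, plus strand): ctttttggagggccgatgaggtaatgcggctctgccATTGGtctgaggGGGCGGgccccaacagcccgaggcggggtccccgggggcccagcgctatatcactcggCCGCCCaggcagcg
Over 250 bases before the RefSeq start, MMP7 held the AP-1 letters at position -67 and the TATA letters at position -30, and none of the other 4 genes held either. In all 35116 upstream sequences of this length, 4.2% held the AP-1 letters and 10.7% the TATA letters. GC box letters were found in MMP14, MMP15, TIMP1 and TIMP3, with 1, 5, 2 and 5 matches, and in 42.6% of all sequences. CCAAT was found in MMP7, MMP14, MMP15 and TIMP3 and in 32% of all sequences, and AGGAAG in MMP7 and TIMP1 and in 28.7%. No marked motif overlapped another. CG pairs numbered 31 in MMP15, 26 in TIMP3, 12 in TIMP1, 7 in MMP14 and 3 in MMP7, where the quartiles over all sequences were 3, 11 and 23. A match is only a run of letters, and binding or methylation was not measured here.

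To set the genes against each other, levels per length were taken from the deposited FPKM, which is reads scaled by gene length and library size. The 7 metalloproteinases summed to 82 FPKM in PC3, 51.1 FPKM in DU145 and 30.3 FPKM in LNCAP, and a different gene led in each line. MMP13 made 54% and MMP1 27.8% of that sum in PC3, whereas MMP14 made 69.7% and MMP15 18.3% in DU145. In LNCAP 88.9% of the sum was MMP15 and 8.02% MMP7. The 3 TIMPs summed to 141.6 FPKM in PC3, 82.7 FPKM in DU145 and 5.74 FPKM in LNCAP. TIMP1 was the larger part in PC3 with 61.8%, TIMP2 in DU145 with 56.4%, and TIMP2 made 95.7% in LNCAP.

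The summed level of these metalloproteinases was thus 0.579 times that of the TIMPs in PC3, 0.618 times in DU145 and 5.29 times in LNCAP. This ratio of transcript levels says nothing of active enzyme. It also leaves out part of the family, since the summed genes made 87.5% of the FPKM of all 23 family genes in PC3. In DU145 they made 74.3% and in LNCAP 85.6%. For MMP14 with TIMP2, the pair that meets in the proMMP2 complex, the ratio of FPKM was 0.249 in PC3 (95% counting interval 0.232 to 0.267), 0.763 in DU145 (0.726 to 0.803) and 0.00256 in LNCAP (6.47e-05 to 0.0143). The 3 intervals did not overlap. The substrate of that complex, MMP2, had no counts in any line.

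**Figure D3:**
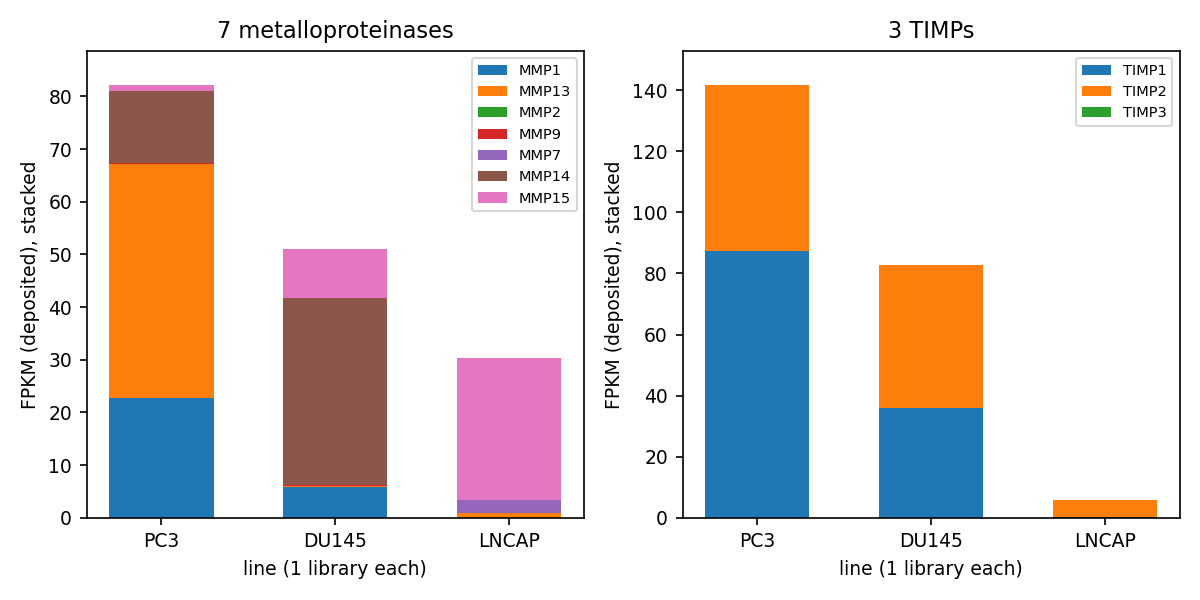
Deposited FPKM of the 7 metalloproteinases (left) and 3 TIMPs (right), stacked by gene for PC3, DU145 and LNCAP with 1 library each and no error shown. The metalloproteinase stack is mostly MMP13 and MMP1 in PC3, MMP14 in DU145 and MMP15 in LNCAP, and the TIMP stack reaches 141.6 FPKM in PC3, against 5.74 FPKM in LNCAP.

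MMP1, MMP7 and MMP13 lie in a cluster of 9 metalloproteinase genes on chromosome 11 (102520508 to 102955734). The cluster summed to 2686 counts in PC3, 185 in DU145 and 180 in LNCAP. In PC3 4 of its genes were read above 3 counts, MMP10, MMP1, MMP3 and MMP13, in DU145 MMP1 only, and in LNCAP MMP7, MMP12 and MMP13. MMP12, a macrophage-type elastase, had 0 counts in PC3, 0 in DU145 and 47 in LNCAP, the pattern of MMP7 at the far end of the cluster. The stromelysin genes MMP3 and MMP10 had 38 and 23 counts in PC3, none in DU145, and 0 and 1 in LNCAP. MMP8, MMP20 and MMP27 had at most 1 count in any library. MMP1 therefore had no neighbour in the cluster that was read in DU145 beyond 3 counts.

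**Figure D4:**
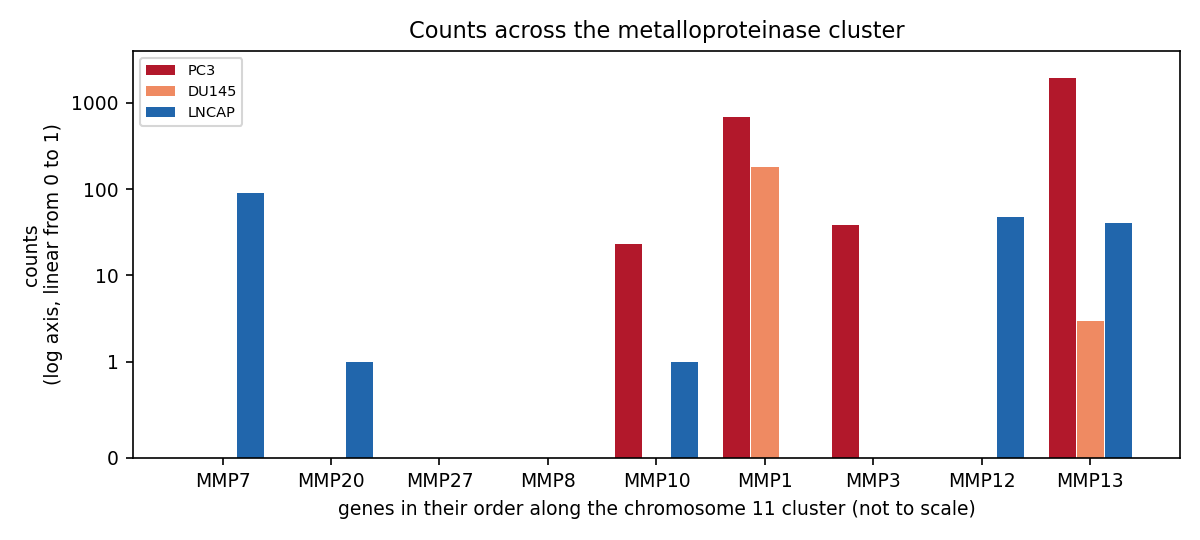
Counts (log axis, linear between 0 and 1) of the 9 metalloproteinase genes of the chromosome 11 cluster in their order along the chromosome, for PC3, DU145 and LNCAP. Counts above 3 fall in PC3 on MMP10, MMP1, MMP3 and MMP13, in DU145 on MMP1, and in LNCAP on MMP7, MMP12 and MMP13.

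For this list and those that follow, 13.0% of all genes were called higher and 13.3% lower in PC3 than in LNCAP. In DU145 against LNCAP these shares were 13.7% and 12.1%. Of 16 other metalloproteinase genes, 9 passed the 1 CPM filter. PC3 was at least 4-fold higher than LNCAP in 4 of them and lower in 1, with a median log2 ratio of 1.62 against -0.01 over all genes tested. That median is 1 gene, MMP28, with 4 counts in PC3 and 1 in LNCAP, and it ran from 0.32 with 1 added to FPKM to 2.80 with a 5 CPM filter. DU145 was higher in 3 and lower in 2, with a median of -0.95 against 0.00 over all genes, which turned to 3.30 with a 5 CPM filter. MMP3 was at least 13-fold higher in PC3 than in LNCAP, and MMP12 at least 15.3-fold lower in PC3 and 15.7-fold lower in DU145. MMP17, a membrane-type enzyme with a lipid anchor, was 26.9-fold higher in PC3 (12.8 to 67.8) and 46.7-fold higher in DU145 (22.4 to 117.2). MMP16, a further membrane-type enzyme, had 693 counts in PC3, 4 in DU145 and 101 in LNCAP, so that it was 177.6-fold higher in PC3 than in DU145 (69.1 to 653.7). MMP24 was 9.88-fold higher in DU145 than in LNCAP (7.84 to 12.6) and 6.78-fold lower in PC3 than in DU145 (5.56 to 8.32), and MMP28, a secreted enzyme, was 4.39-fold lower in PC3 than in DU145 (1.45 to 17.8) on 4 and 18 counts. Per length, the 6 membrane-type genes together made 24.9% of the FPKM of all 23 family genes in PC3, 89.8% in DU145 and 82.1% in LNCAP. Family genes with no counts in any library were MMP2, MMP8, MMP26 and MMP27.

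Of 4 further inhibitor genes and PCOLCE, which is known as an enhancer of procollagen processing, 3 passed the filter. TFPI2 was higher than in LNCAP in PC3 and DU145, PCOLCE in PC3 only by the 4-fold rule, and none was lower. TFPI2, a protease inhibitor of the matrix, had 1358 counts in PC3, 278 in DU145 and 0 in LNCAP, so it exceeded LNCAP by 463-fold or more in PC3 and by 92.5-fold or more in DU145. PCOLCE was 6.14-fold higher in PC3 than in LNCAP (4.07 to 9.6). RECK, a membrane-anchored inhibitor of metalloproteinases, had 112, 404 and 158 counts in PC3, DU145 and LNCAP and was under 4-fold in each comparison. TIMP4 had 10, 8 and 0 counts and did not pass the filter.

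ADAM and ADAMTS genes, relatives of the metalloproteinases that several TIMPs also inhibit, went both ways. Of 16, 12 passed the filter, and 4 were higher and 2 lower in PC3 against LNCAP, with the same numbers in DU145 against LNCAP and medians of 1.14 and 1.18 (0.46 and 0.25 with 1 added to FPKM). ADAM19 had 1718 counts in PC3, 797 in DU145 and 0 in LNCAP. ADAMTS15 was 11.8-fold higher in PC3 than in LNCAP (8.04 to 18.1), and ADAM28 had 78 counts in LNCAP and none in the others. ADAMTS10 had 2, 17 and 0 counts in PC3, DU145 and LNCAP. ADAMTS1, which cuts the proteoglycans versican and aggrecan, had 895 counts in PC3, 0 in DU145 and 12017 in LNCAP. ADAM17, the sheddase that TIMP3 inhibits, had 790, 1603 and 393 counts and was 4.07-fold higher in DU145 than in LNCAP (3.64 to 4.56).

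Of 10 proteases that act in the activation of metalloproteinase proforms, directly or through other proteases, 8 passed the filter. In PC3 2 were higher than in LNCAP and 3 lower (median log2 ratio -0.38), in DU145 1 was higher and 2 lower (median 0.02). FURIN, the convertase that processes MMP14 and MMP15, had 1016 counts in PC3, 2064 in DU145 and 1531 in LNCAP and was under 2-fold apart in each pair. The urokinase gene PLAU, whose product turns plasminogen into plasmin, had 7179, 11798 and 14 counts, while the plasminogen gene PLG had at most 1 count. PLAT, the tissue plasminogen activator gene, had 34943 counts in PC3, 31 in DU145 and 22 in LNCAP. ST14, which encodes matriptase, had 4, 281 and 4615 counts in PC3, DU145 and LNCAP. HPN, which encodes the membrane serine protease hepsin, had 0, 4 and 2081 counts, at least 678.2-fold lower in PC3 and 521.5-fold lower in DU145 than in LNCAP (203.4 to 1916). PCSK6, a convertase gene, was 17.4-fold lower in PC3 than in DU145 (10.7 to 30.2).

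All 10 genes of surface proteins that bind or induce metalloproteinases passed the filter, and 5 were higher in PC3 and 5 in DU145 against LNCAP, with 1 lower in PC3 and none in DU145. The median log2 ratio was 2.14 in PC3 and above 2 in DU145, and the PC3 median was 1.61 with genes lacking LNCAP counts at their bound. ITGB3, with 8 counts in PC3 and 0 in LNCAP, is counted as higher although its bound is at least 2.73-fold only. CD44, which can hold MMP9 and MMP14 at the surface, had 4223 counts in PC3, 2205 in DU145 and 0 in LNCAP, and the caveolin gene CAV1 had 3643, 6898 and 0. The integrin gene ITGAV was 4.33-fold lower in PC3 than in LNCAP (4.04 to 4.63). LRP1, an endocytic receptor that clears metalloproteinases and TIMPs, was 8.63-fold higher in PC3 (7.9 to 9.45) and 8.13-fold higher in DU145 (7.44 to 8.9). BSG, which encodes the inducer basigin, had 5797, 11795 and 9180 counts and was under 2-fold apart in each pair.

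AP-1 and ETS-type factors are known regulators of several metalloproteinase promoters. Of 11 such genes, 5 were higher in PC3 and 6 in DU145 than in LNCAP, with none lower and median log2 ratios of 1.31 and 2.48. The list also held RUNX1 and RUNX2. RUNX1 was 21.5-fold higher in PC3 than in LNCAP (17.3 to 27.2) and 30.9-fold higher in DU145 (24.8 to 38.9). FOSL1, an AP-1 subunit gene, had 8056 counts in PC3, 1942 in DU145 and 8 in LNCAP. ETV5 was 187-fold higher in DU145 than in LNCAP (90.5 to 466). ETV4 was 305.5-fold higher in PC3 (174.7 to 591.7) and 35.3-fold higher in DU145 (20 to 68.9). RUNX2, a factor known to act on MMP13, had 361 counts in PC3, 40 in DU145 and 390 in LNCAP. It was 9.77-fold lower in DU145 than in LNCAP (7.05 to 13.9) and level between PC3 and LNCAP within counting error (1.06-fold lower, 0.913 to 1.22).

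Matrix substrates passed the filter for 17 of 18 genes. In PC3 11 were higher than in LNCAP and 2 lower (median 2.96), in DU145 8 were higher and 5 lower (median 2.32). With 1 added to FPKM these medians were 2.01 and 1.29. The DU145 median of 2.32 is 1 gene, VCAN, with 2 counts in DU145 and 0 in LNCAP, a pair that has no fold. The genes next to it were LAMA5 at 1.31 and HSPG2 at 2.51. COL4A1, a basement membrane collagen gene, had 972 counts in PC3, 356 in DU145 and 0 in LNCAP. TNC, which encodes tenascin C, exceeded LNCAP by 207.2-fold in PC3 (140.2 to 320.4) and by 111.1-fold in DU145 (75.1 to 171.9). FN1, the fibronectin gene, had 5762, 525 and 78683 counts in PC3, DU145 and LNCAP. COL4A6 was 102.5-fold higher in PC3 than in DU145 (34.7 to 499.9), from 3 DU145 counts. COL3A1, a fibrillar collagen that MMP1 and MMP13 cut, had 239 counts in PC3, 2 in DU145 and 31 in LNCAP. COL4A5 was 27.4-fold lower in DU145 than in LNCAP (21.8 to 35). LAMC1, a laminin chain gene, was 12.4-fold lower in PC3 (11.8 to 12.9) and 4.47-fold lower in DU145 (4.36 to 4.6).

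**Figure D5:**
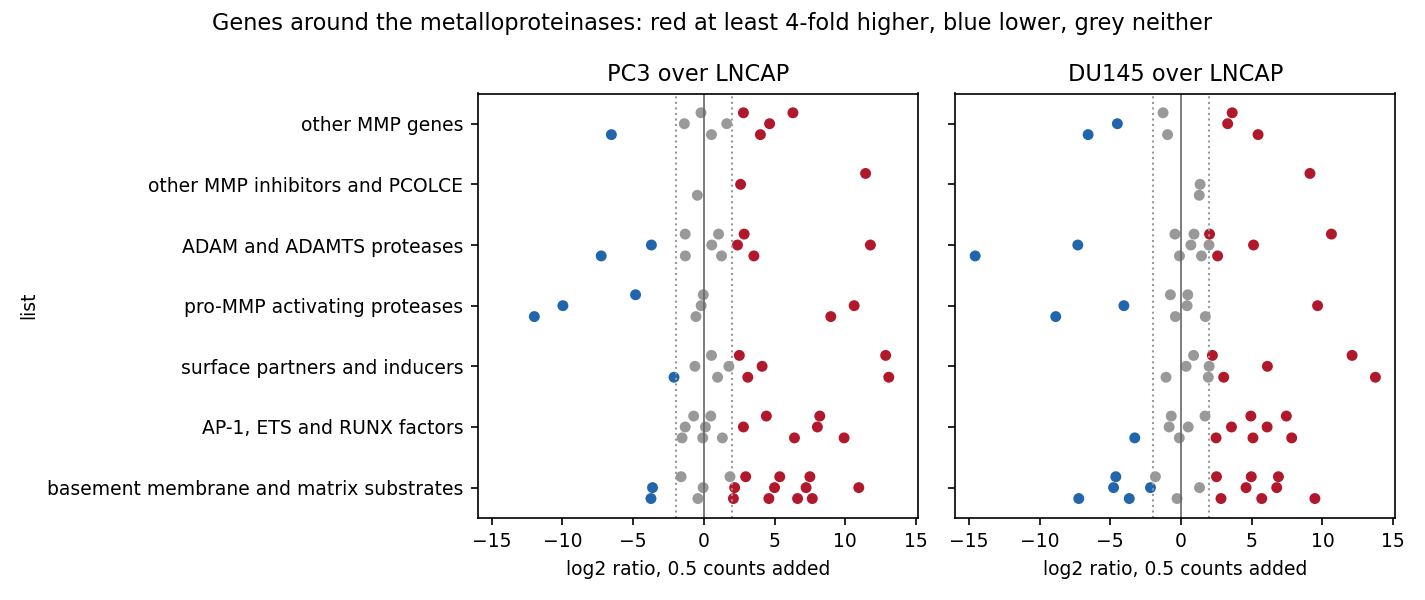
Log2 ratios with 0.5 counts added of the genes that passed the 1 CPM filter in 7 lists, for PC3 over LNCAP (left) and DU145 over LNCAP (right), 1 point per gene, red when called higher, blue when called lower, grey when neither. Genes with at most 3 counts in both libraries of a pair are left out, and the AP-1, ETS and RUNX factors and the matrix substrates hold the most red points.

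Between PC3 and DU145 the lists gave the following calls, where 8.54% of all genes were called higher and 10.6% lower in PC3. Of the 9 other metalloproteinase genes tested 3 were higher and 2 lower in PC3. Their median log2 ratio was 0.04 against 0.02 over all genes (-0.80 with a 5 CPM filter). The 0.04 is the value of 1 gene, MMP12, with 0 counts in PC3 and in DU145, so it is no measured ratio. Of 17 matrix genes 7 were higher in PC3 and 1 lower (median 1.66). LAMB3 was the gene called lower, at 5.36-fold (5.1 to 5.64). Of 11 AP-1 and ETS factors FOSL1 and ETV4 were higher and FOS lower, at 9.55-fold (6.51 to 14.5), and RUNX2 was 9.25-fold higher in PC3 (6.66 to 13.2). Of 8 activating proteases 1 was higher and 2 lower, of 12 ADAM and ADAMTS genes 1 was higher and 2 lower (ADAM9 at 4.05-fold, 3.9 to 4.21, and ADAMTS10), of TFPI2, RECK and PCOLCE the first was higher, and of 10 surface proteins none was called.

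PC3 and DU145 were also set together against LNCAP with edgeR's quasi-likelihood test, which takes the difference between them as the spread within the class and had 1 residual degree of freedom. After Benjamini-Hochberg adjustment it called 0 of 18025 genes, with 1746 at an unadjusted p under 0.05, and limma-voom also called 0. The 7 genes tested had edgeR log2 ratios over LNCAP from -9.48 for MMP7 to 11.79 for MMP1. Of these 7, 5 had passed the filter only through the libraries where they were high. All were chosen with earlier results of these data known. DESeq2 called 7.25% of all genes and 4 of the 7. In DESeq2 3146 of the 18025 genes had no adjusted p and could not be called, while each of the 7 had one, so these shares have unlike bases. Different cell lines stand in for replicates here and LNCAP has 1 library, so none of these calls bears on castration-resistant cancer as a class.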

How the data were processed

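RNA from 3 established cell lines, 1 library each, was compared. The authors deposited raw read counts per gene and FPKM values per gene. The FPKM values were proportional, within a library, to counts per listed length. The submitters' processing notes name Cuffdiff 2.1.1, Cufflinks 2.1.1, TopHat2 2.0.9 and Bowtie2 2.0.6 without roles. How reads were counted, with or without strand, and on which build is not given in the sources used here. The 58735 gene identifiers and coordinates equalled those of GENCODE 29 (GRCh38).

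TMM normalisation gave factors of 0.9978 in PC3, 0.9868 in DU145 and 1.016 in LNCAP (edgeR 4.0.16, R 4.3.3). The filter of 1 CPM in any library left 18025 genes. Ratios have exact conditional binomial (Clopper-Pearson) 95% intervals (scipy 1.17.1 under Python 3.11.15), and log2 ratios have 0.5 counts added. Levels have exact Poisson intervals. A library without counts was set to 3 counts to give a bound without a counting interval, and pairs with at most 3 counts in each library have no fold. The class comparison used edgeR's quasi-likelihood test with Benjamini-Hochberg adjustment at 0.05, with DESeq2 1.42.0 and limma-voom (limma 3.58.1) as alternatives.

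The 10 genes and the 7 gene lists were chosen with earlier results of these data known. From each list 2 genes were named in each direction and pair of lines, those whose interval lay farthest from 1, along with others chosen after their values were seen (ADAM17, FURIN, PLG, LRP1, BSG, RECK, TIMP4, ITGB3, RUNX1 and MMP20). The membrane-type group was set after values were seen.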

Additional observations from a re-analysis of the deposited data

Results flagged for a closer look

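MMP13 moved in opposite directions in the castration-resistant lines. Its log2 ratio with 0.5 counts added was 5.58 in PC3 against LNCAP and -3.57 in DU145 against LNCAP. The counts were 1934 in PC3, 3 in DU145 and 41 in LNCAP, so the second ratio rests on 3 reads, and with 1 added to the deposited FPKM it was -0.84 and no longer called. With 1 library per line the difference between the lines has no test beyond counting error.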

How the results depend on the processing

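Every alternative was run for each pair of lines: size factors from DESeq2, library totals with and without mitochondrial genes, no filter, a 5 CPM filter, 5 added counts, FPKM with 0.1 or 1 added, and 2-fold and 8-fold thresholds. MMP2 and TIMP3 have no ratio. The other 8 genes had 230 checks of their log2 ratios and calls, each with a changed scale, filter or threshold. In 221 checks the call stayed as it was, in 6 it was gained and in 3 it was lost. No log2 ratio reversed, but a changed filter or threshold leaves the ratio itself as it was and could not reverse it. With 1 added to FPKM, 1 gene was called lower in PC3 against LNCAP and 0 in DU145 against LNCAP, since MMP7 (-1.78 in each) and MMP13 (-0.84 in DU145) missed the threshold. Without a filter MMP9 was called higher in PC3 and in DU145 against LNCAP. At 2-fold, PC3 against DU145 had 3 genes higher and 2 lower. In the class comparison DESeq2 called 4 genes where edgeR called 0. Of 420 list counts 53 moved by over 1.5 times, and of 210 list medians 25 did. Ratios of levels per length were the same in TPM, which was fixed in advance because both scales are counts per length within a library. No paired analysis was possible because each line had 1 library. Leaving out a replicate was likewise not possible.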
